A study of Drosophila melanogaster with 12 samples.

Results

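The comparison described here sets 3 libraries labelled trxRNAi DSS against 3 libraries labelled Ctrl DSS, 6 of the 12 libraries of the series, across 8399 of the 17617 genes listed in each library. The libraries were taken by their titles, and a gene was kept where 3 or more of the 12 libraries had a value of 10 or higher. A gene could thus be kept through 1 group of 3 libraries alone, and would then be highest in that group. Each library holds RNA of progenitor cells sorted by green fluorescence (GFP) from intestines of mated Drosophila melanogaster females, read from the 3′ end of each transcript. The trxRNAi DSS flies carried the esgtsGFP driver, a temperature-controlled GAL4 line active in midgut progenitors, together with UAS-trxRNAi (BDSC#33703), a hairpin construct against trithorax. The Ctrl DSS flies were the same driver line crossed to w1118 and carried no hairpin. Both groups were 3 to 4 days old when they were moved to 29 °C for 7 days, and both were fed 3% dextran sulfate sodium (DSS), a polymer that injures the gut lining, in the final 48 h. The series also holds trxRNAi Sucrose and Ctrl Sucrose groups of the same genotypes fed 5% sucrose, which are set beside the DSS groups where that is said. The labels name 1 hairpin line and do not state that replicates were separate groups of flies. P-values thus measure the spread between these samples, which may be technical.

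Trithorax is a histone methyltransferase of the COMPASS family that places methyl marks on lysine 4 of histone H3 and is known for keeping active genes active, in opposition to the Polycomb group. In the adult midgut, intestinal stem cells divide to renew themselves and give rise to absorptive enterocytes through enteroblasts, and to enteroendocrine (EE) cells, which store peptide hormones in dense core vesicles and release them on stimulation. Notch signalling steers daughters to the enterocyte path, while proneural factors, Prospero and low Notch activity mark the EE path. Injury by DSS is widely used to make stem cells divide. In bulk samples such as these, fewer cells of a type and less RNA per cell cannot be told apart.

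Values are the authors' scaled whole numbers, given per library in the order of replicates 1, 2 and 3. Each difference is taken on log2(value + 2), trxRNAi DSS minus Ctrl DSS, with its standard error (SE) from limma, and a gene is called when its Benjamini-Hochberg adjusted p over all 8399 genes is under 0.05. Value totals of the 6 libraries lay between 5362337 and 6520981. On the first principal component of all 12 libraries, with 29.5% of the variance, the trxRNAi DSS libraries lay between -35.3 and -34.8 and the Ctrl DSS libraries between 27.1 and 40.3. The trxRNAi Sucrose libraries lay between 18.6 and 22.2, on the side of Ctrl DSS, and the Ctrl Sucrose libraries between -23.7 and -7.86, on the side of trxRNAi DSS. The second component, with 18.3% of the variance, held Ctrl DSS replicate 3 at -16.6, apart from the other Ctrl DSS libraries at 14.2 and 30.6.

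Under DSS the knockdown target did not separate the groups. The gene trx (FBgn0003862) lies on chromosome 3R between 14263358 and 14286903 of the dm6 build. It had values of 715, 758 and 808 in the trxRNAi-labelled DSS libraries and 841, 1041 and 652 in the Ctrl-labelled DSS libraries. The groups overlapped, and the difference was -0.13 ± 0.19 (adjusted p = 0.772, 95% interval -0.53 to 0.28). Under sucrose trx was called lower, with 668, 667 and 448 in trxRNAi and 1114, 1217 and 1313 in Ctrl (-1.05, adjusted p = 0.00356). The part of the trx transcript that the hairpin targets is not given in the sources used here, and the reads come from its 3′ end. An abundant RNA that separated the groups ran across the labels. The long noncoding RNA lncRNA:CR34335 had values of 102145, 89533 and 82960 in the trxRNAi-labelled DSS libraries and 1450, 2206 and 892 in the Ctrl-labelled DSS libraries, while it had 837, 1198 and 1066 in trxRNAi Sucrose and 94919, 100895 and 76749 in Ctrl Sucrose. Under DSS trx therefore does not check the genotype labels, and the cause of the crossed pattern was not tested. Groups are therefore called the trxRNAi-labelled and the Ctrl-labelled libraries, and every direction below is that of the labels.

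The homeobox gene Ptx1, which the series title names, had values of 77, 115 and 140 in the trxRNAi-labelled DSS libraries and 78, 50 and 33 in the Ctrl-labelled DSS libraries. The groups overlapped at 77 and 78, and Ptx1 was not called at 1.06 ± 0.33 (adjusted p = 0.0568). It passed without Ctrl DSS replicate 1 (1.36, adjusted p = 0.0284) and without trxRNAi DSS replicate 1 (1.29, adjusted p = 0.0417), and its adjusted p was between 0.115 and 0.222 without any other DSS library. Ptx1 is known for a part in which hormones EE cells make along the midgut. Under sucrose the values of Ptx1 were 13, 15 and 7 in trxRNAi and 218, 176 and 162 in Ctrl, a difference of -3.82 (adjusted p = 2.71e-06), and the difference between the feeds passed the test (adjusted p = 2.89e-06).

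**Figure D1:**
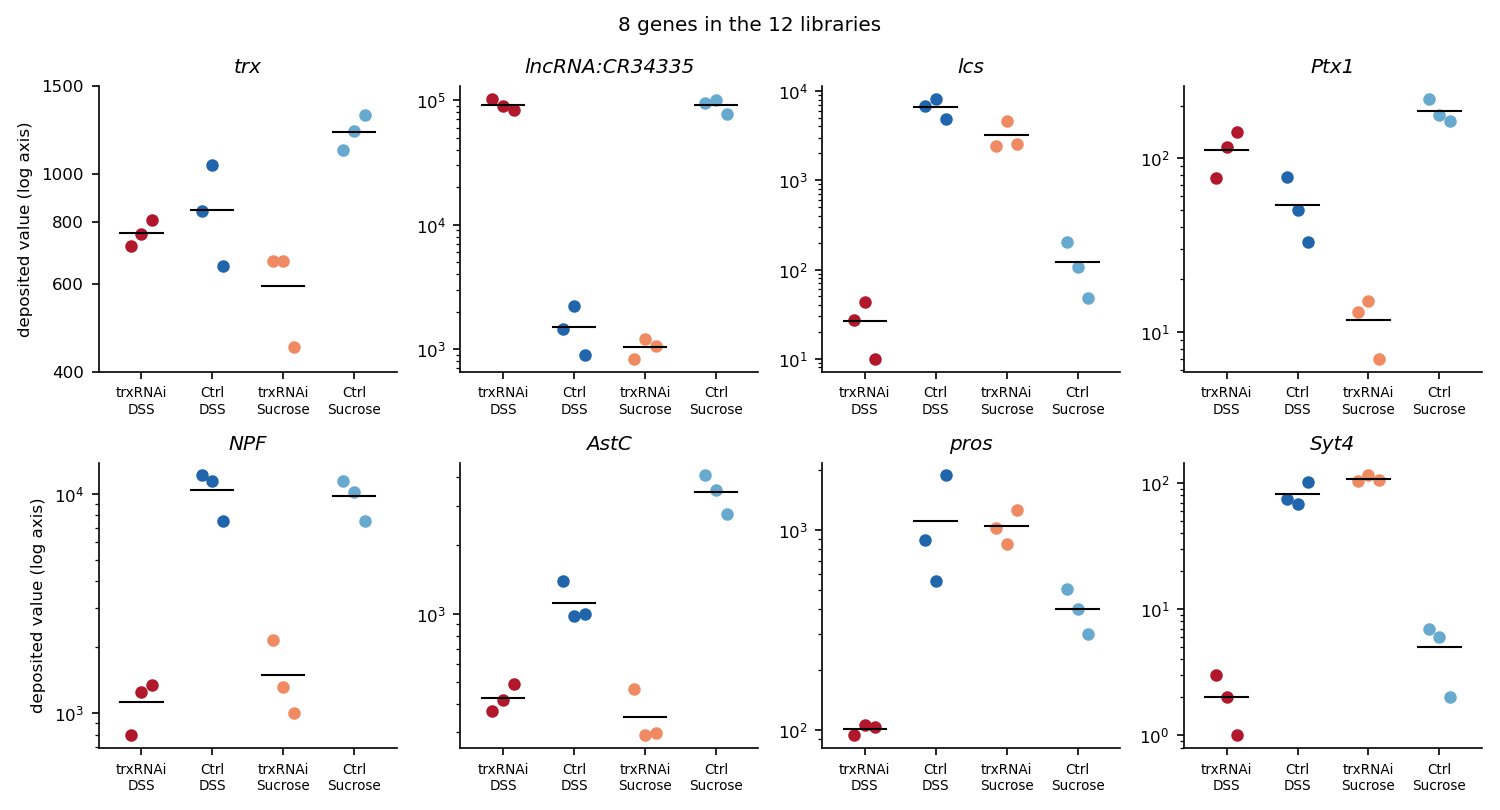
Deposited values on log axes of 8 genes in the 12 libraries, 1 point per library and a line at the mean of each group of 3. The values of trx overlap between trxRNAi DSS and Ctrl DSS, NPF and AstC are low in both trxRNAi groups, and lncRNA:CR34335, lcs and Syt4 have trxRNAi DSS beside Ctrl Sucrose and Ctrl DSS beside trxRNAi Sucrose.

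Across all genes, 793 of 8399 were called, which is 9.44%. Of these, 321 were higher in the trxRNAi-labelled libraries (3.82% of the genes tested) and 472 were lower (5.62%). The counts of called genes in the lists below stand beside these shares. The falls were larger: 370 genes fell and 141 rose at least 2-fold, and 83 fell and 6 rose at least 8-fold. Libraries of the groups did not overlap for 25.5% of the genes tested. Limma gave an unadjusted p under 0.05 for 1881 of the 8399 genes. With libraries brought to one total instead of the authors' scaling, 201 genes were higher and 595 lower, and the higher share of the called genes was 25.3% rather than 40.5%. This rescaling put the median difference of all genes at -0.13, against -0.01 with the authors' scaling. When each DSS library was left out in turn, 125 of the rises and 255 of the falls were called in all 6 fits. The number of rises was 179 without trxRNAi DSS replicate 3, 190 without trxRNAi DSS replicate 1, 201 without trxRNAi DSS replicate 2, and 206 without Ctrl DSS replicate 1. It was 232 without Ctrl DSS replicate 2 and 448 without Ctrl DSS replicate 3. Called genes were spread over the chromosome arms, with shares between 7.94% of the genes tested on chromosome 4 and 10.6% on arm 2R.

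The largest falls were in a set of genes, most known only by number, that were abundant in the Ctrl-labelled libraries. The gene lcs had values of 27, 43 and 10 in the trxRNAi-labelled libraries and 6808, 8130 and 4843 in the Ctrl-labelled libraries, a difference of -8.01 ± 0.60 (adjusted p = 5.21e-05). Its neighbour whe had 32, 64 and 7 in trxRNAi-labelled and 7690, 9202 and 4743 in Ctrl-labelled libraries, a difference of -8.00 ± 0.93. CG16826 had 65, 117 and 14 in trxRNAi-labelled and 7054, 10310 and 9505 in Ctrl-labelled libraries, a difference of -7.46 ± 0.80. Each of these genes was lowest in trxRNAi DSS replicate 3, and every Ctrl-labelled library lay far above every trxRNAi-labelled one. CG34212 (-7.92 ± 0.84), CG45080 (-7.26 ± 0.96), CG13947 (-7.19 ± 0.84), CG43680 (-6.90 ± 0.37), CG33109 (-6.82 ± 0.45) and CG44142 (-6.08 ± 0.60) were the other falls of this kind. CG43680 had the smallest adjusted p of the comparison (6.13e-09), with values of 2, 5 and 1 in trxRNAi-labelled and 455, 731 and 421 in Ctrl-labelled libraries. It overlaps the synaptotagmin gene Sytbeta on the same strand, so reads of the 2 genes may be shared.

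LysD, LysB and Idgf3 completed the 12 largest falls. LysD, a digestive lysozyme of the midgut, had values of 9, 5 and 5 in the trxRNAi-labelled libraries and 544, 1284 and 321 in the Ctrl-labelled libraries (-6.23 ± 0.49, adjusted p = 3.22e-06). LysB had 2, 1 and 0 in trxRNAi-labelled and 209, 464 and 102 in Ctrl-labelled libraries (-6.23 ± 0.50). LysE, outside that set, had 1, 1 and 3 in trxRNAi-labelled and 101, 271 and 40 in Ctrl-labelled libraries (-4.89 ± 0.66). These lysozyme genes are near-identical neighbours, so reads may be divided between them. Of the 7 gut lysozymes in the files, 4 were tested and 3 of them fell, with a median difference of -5.56; LysP did not pass at -0.77, and LysC, LysS and LysX were below the filter. Idgf3, an imaginal disc growth factor of the chitinase-like family, had values of 0, 1 and 1 in trxRNAi-labelled and 88, 142 and 100 in Ctrl-labelled libraries, a difference of -5.39 ± 0.46 (adjusted p = 1.8e-06). For genes so near 0 the size of the difference depends on the pseudocount: Idgf3 stood at -6.70 with a pseudocount of 0.5 and at -3.74 with 8, and lcs at -8.12 and -7.67.

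The largest rise was that of lncRNA:CR34335, with the values above, at 6.00 ± 0.25 (adjusted p = 1.01e-08). It lies inside DIP-alpha on the same strand, and DIP-alpha itself had values of 392, 343 and 326 in trxRNAi-labelled and 297, 205 and 642 in Ctrl-labelled libraries, which overlapped. Sp7, a clip-domain serine protease gene, had 95, 92 and 99 in trxRNAi-labelled and 5, 0 and 6 in Ctrl-labelled libraries (4.34 ± 0.50, adjusted p = 2.49e-05). The next tested gene on chromosome 3R, pyd3, which encodes an enzyme of pyrimidine breakdown, had 141, 173 and 187 in trxRNAi-labelled and 15, 5 and 5 in Ctrl-labelled libraries (4.16 ± 0.40, adjusted p = 4.17e-06). The groups lay far apart for both genes. AstA-R1, a receptor of the gut hormone allatostatin A, had 60, 84 and 81 in trxRNAi-labelled and 8, 3 and 7 in Ctrl-labelled libraries (3.31 ± 0.40). The caudal homeobox gene cad, a factor of the posterior midgut, had 55, 79 and 114 in trxRNAi-labelled and 9, 24 and 1 in Ctrl-labelled libraries (3.10 ± 0.61, adjusted p = 0.00465). The other rises of this set were CG30049 (2.55 ± 0.33), CG34376 (2.47 ± 0.27), the zinc finger gene sens-2 (2.41 ± 0.38), nebu (2.34 ± 0.43), CG15093 (2.19 ± 0.27), the copper importer gene Ctr1B (2.19 ± 0.41) and CG32407 (2.15 ± 0.33). These 12 rises and 12 falls were chosen as called in all 6 fits that left out a library and as free of overlap between the groups, so neither property is a result.

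Position was shared by some genes of this set although the rule did not use it. How often other called genes lie as close together was not counted. Of the 24 genes, lcs and whe lie 5023 bases apart on the X chromosome, CG44142 and CG45080 lie 5803 bases apart on 3R, pyd3 and Sp7 lie 9707 bases apart on 3R, and LysB and LysD lie 2736 bases apart on 3L, in each case with no other tested gene beginning between them. On X, lncRNA:CR34335 and AstA-R1 lie 28426 bases apart with 1 tested gene between. Members of each pair moved in one direction. For the near-identical LysB and LysD reads may be divided between the genes, as said above. The sucrose groups were also shared: for all 24 genes the trxRNAi Sucrose mean lay nearer to Ctrl DSS than to trxRNAi DSS, and the Ctrl Sucrose mean lay nearer to trxRNAi DSS.

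**Figure D2:**
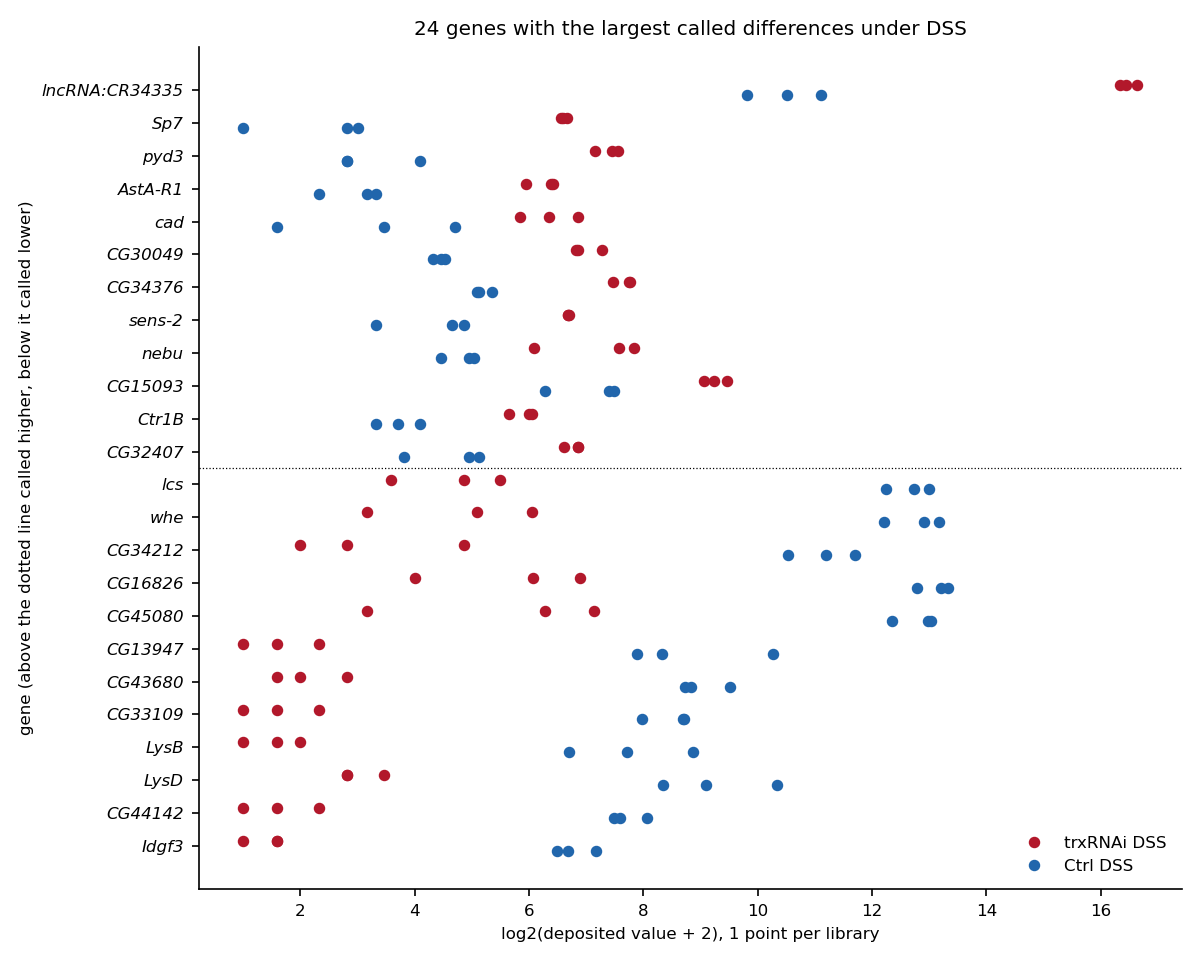
log2 of value plus 2 in the 3 trxRNAi DSS and 3 Ctrl DSS libraries for the 12 largest rises (above the dotted line) and 12 largest falls (below it) among called genes with a group mean of at least 50 that kept the call in every fit with a library left out, 1 point per library. Genes were drawn only if their groups did not overlap, and most falls are longer than most rises.

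Peptide hormone genes of EE cells were lower in the trxRNAi-labelled libraries. Of 12 in the files, 10 were tested, 7 fell and none rose, with a median difference of -2.09 beside -0.01 over all genes tested. The gene lists were chosen with earlier results of these data known, so their counts and medians are descriptive and not independent support. NPF, the neuropeptide F hormone, had values of 794, 1249 and 1340 in trxRNAi-labelled and 12080, 11462 and 7481 in Ctrl-labelled libraries, a 9.19-fold fall (-3.20 ± 0.29, adjusted p = 1.79e-05). Tachykinin (Tk) had 64, 117 and 149 in trxRNAi-labelled and 842, 743 and 1001 in Ctrl-labelled libraries (-3.02 ± 0.31). AstC had 372, 417 and 489 in trxRNAi-labelled and 1386, 974 and 991 in Ctrl-labelled libraries, a smaller fall of -1.38 ± 0.21 with no overlap. Orcokinin had 380, 504 and 742 in trxRNAi-labelled and 3234, 2012 and 1424 in Ctrl-labelled libraries, a 4.01-fold fall. CCHa2 was uneven within Ctrl-labelled libraries, with 55, 74 and 82 in trxRNAi-labelled and 1064, 581 and 4385 in Ctrl-labelled libraries (-4.29 ± 0.67, adjusted p = 0.00428). CCHa1 had 100, 52 and 61 in trxRNAi-labelled and 242, 170 and 758 in Ctrl-labelled libraries (-2.17 ± 0.45). The highest library of both CCHamides was Ctrl DSS replicate 3, and their lowest Ctrl-labelled library was still above every trxRNAi-labelled one. The short neuropeptide F gene sNPF was listed at 0 in all 3 trxRNAi-labelled libraries and at 30, 8 and 147 in Ctrl-labelled libraries, and was called lower (adjusted p = 0.0025). AstA (-0.98 ± 0.33, adjusted p = 0.0726) and Dh31 (-1.68 ± 0.53, adjusted p = 0.0598) did not pass although their groups did not overlap, and ITP, the ion transport peptide, stood level at -0.02 ± 0.20. Mip and CCAP were below the filter. All 7 calls held in every fit with a library left out.

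The enzymes that turn prohormones into active peptides fell with them. Of 12 tested genes for prohormone processing and dense core vesicles, 6 fell and none rose (median -1.07), and the same number fell in each fit with a library left out. 7B2, which assists the prohormone convertase, had values of 26, 30 and 42 in trxRNAi-labelled and 260, 221 and 248 in Ctrl-labelled libraries (-2.84 ± 0.25, adjusted p = 1.8e-06). The convertase gene amon itself had 14, 34 and 40 in trxRNAi-labelled and 212, 112 and 265 in Ctrl-labelled libraries (-2.69 ± 0.38). IA-2, a phosphatase-like protein of the vesicle membrane, had 647, 762 and 866 in trxRNAi-labelled and 6309, 4528 and 10381 in Ctrl-labelled libraries (-3.14 ± 0.26, adjusted p = 4.17e-06). The groups stood apart for all 3 genes. Of the amidating enzymes, Pal2 fell by 3.02 ± 0.34 and the monooxygenase gene Phm by 0.92 ± 0.16, whereas Pal1 and the carboxypeptidase gene svr did not pass. The vesicle GTPase gene Rab3 fell by 2.07 ± 0.37.

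Genes of vesicle docking and release were split. Of 24 genes for synaptotagmins and exocytosis, 22 were tested, 12 fell and 1 rose, with a median of -1.85. Among the falls were calcium sensors and active zone scaffolds. Syt4 had 3, 2 and 1 in trxRNAi-labelled and 75, 68 and 103 in Ctrl-labelled libraries (-4.40 ± 0.40, adjusted p = 2.64e-06). Rbp, the RIM-binding protein, had 4, 3 and 8 in trxRNAi-labelled and 64, 64 and 186 in Ctrl-labelled libraries (-3.80 ± 0.43), and the scaffold gene Rim had 7, 8 and 4 in trxRNAi-labelled and 63, 47 and 108 in Ctrl-labelled libraries (-3.11 ± 0.39). The active zone scaffold brp (-2.24 ± 0.37), the complexin gene cpx (a 4.0-fold fall), the vesicle SNARE nSyb (-1.69 ± 0.24), Syt1 (-2.42 ± 0.35), Syt7 (-2.37 ± 0.50), Sytalpha (-2.75 ± 0.48) and Sytbeta (-2.07 ± 0.43) also fell, each called in every fit with a library left out. The vesicle protein genes Syn and Rph were called lower at -2.10 and -2.14, and lost the call in 3 and 2 of these fits, with the highest adjusted p at 0.0886 without trxRNAi DSS replicate 3 for Syn and at 0.0756 without trxRNAi DSS replicate 1 for Rph. General fusion genes were among the 9 not called, with Snap24 at -0.11, alphaSnap at -0.05, Rop at -0.01, unc-13 at 0.09, Syx1A at 0.15 and Nsf2 at 0.36. The called rise was that of unc-104, a kinesin that carries vesicles (0.64 ± 0.18, adjusted p = 0.0302), a call that 4 of the 6 left-out fits did not keep (highest adjusted p = 0.122, without trxRNAi DSS replicate 3).

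Genes of electrical excitability were lower as well. Of 28 voltage-gated and background ion channel genes, 21 were tested, 14 fell and none rose, with a median of -2.31, and between 12 and 13 fell when a library was left out. The Shaker potassium channel gene Sh had 7, 9 and 7 in trxRNAi-labelled and 171, 151 and 142 in Ctrl-labelled libraries (-4.02 ± 0.41, adjusted p = 8.15e-06). Its accessory subunit gene Hk fell by 1.70 ± 0.35. The calcium channel gene cac, which acts at active zones, had 19, 18 and 32 in trxRNAi-labelled and 186, 151 and 251 in Ctrl-labelled libraries, a 7.99-fold fall (adjusted p = 2.64e-06). All 3 libraries of each group stood close together for Sh, and the groups of both genes were far apart. The other calcium channels Ca-alpha1D (-2.70 ± 0.41) and Ca-alpha1T (-2.71 ± 0.33) fell, as did stol (-2.58 ± 0.43) and stj (-2.85 ± 0.54), which encode their auxiliary subunits. Ih, a channel opened by hyperpolarisation, had 284, 343 and 313 in trxRNAi-labelled and 1551, 1886 and 1302 in Ctrl-labelled libraries (-2.31 ± 0.18, adjusted p = 5.4e-07). The calcium-activated potassium channels SK (-2.85 ± 0.36) and slo (-2.79 ± 0.44) fell, and Shab was listed at 0 in the trxRNAi-labelled libraries and at 22, 21 and 12 in Ctrl-labelled ones. The sodium channel para had 0, 3 and 1 in trxRNAi-labelled and 12, 16 and 33 in Ctrl-labelled libraries (-2.73 ± 0.63, adjusted p = 0.00986). Among the 7 genes not called, KCNQ stood at 1.67 (adjusted p = 0.0691) and Shal at 0.18. The calls of eag and NaCP60E were lost in 3 and 5 of the left-out fits.

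Of 10 sensory receptor genes in the files 3 were tested, and 2 fell. Piezo, a stretch-activated channel present in a subset of EE precursors, had 13, 33 and 19 in trxRNAi-labelled and 166, 298 and 118 in Ctrl-labelled libraries (-3.03 ± 0.36, adjusted p = 4.02e-05). TrpA1, a channel that responds to irritants, had 2, 3 and 3 in trxRNAi-labelled and 49, 32 and 51 in Ctrl-labelled libraries (-3.28 ± 0.55, adjusted p = 0.00087). The groups did not overlap for either. The fructose receptor gene Gr43a stood at 0.07. Of 13 hormone receptor genes, 5 were tested, and beside the rise of AstA-R1 there were 3 falls. NPFR had 7, 2 and 4 in trxRNAi-labelled and 26, 17 and 18 in Ctrl-labelled libraries (-1.87 ± 0.45, adjusted p = 0.0129), AstA-R2 stood at -2.72 ± 0.71 (adjusted p = 0.0215) and sNPF-R at -1.57 ± 0.47 (adjusted p = 0.0441). Each of these 3 falls was lost with a library left out: the adjusted p of NPFR was 0.0648 without Ctrl DSS replicate 1 or without trxRNAi DSS replicate 2, that of AstA-R2 was between 0.0648 and 0.104 without Ctrl DSS replicate 1 or 2 or trxRNAi DSS replicate 1 or 2, and that of sNPF-R was between 0.0542 and 0.146 without any 1 of the 6.

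**Figure D3:**
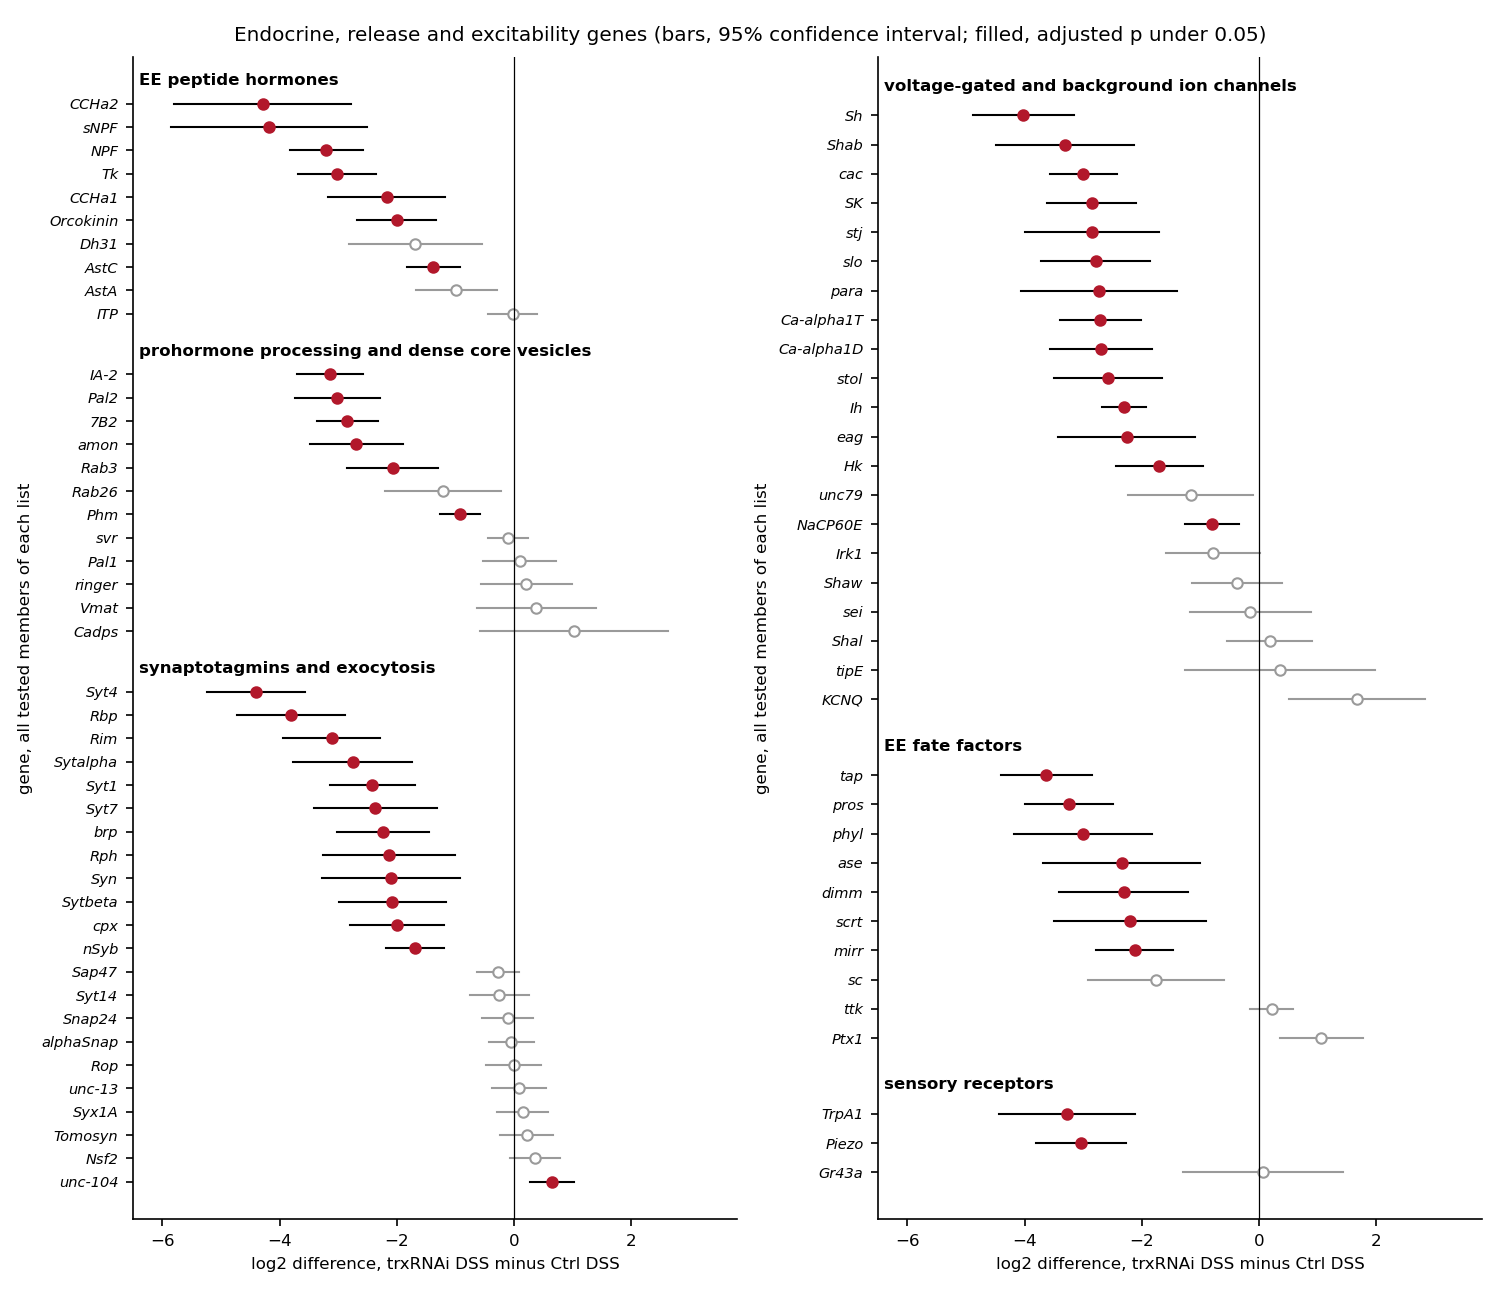
log2 difference, trxRNAi DSS minus Ctrl DSS, of every tested member of 6 gene lists, with the 95% confidence interval of the limma fit. Filled points are called; hormones, processing enzymes, active zone genes and channels lie mostly left of 0, and general fusion genes such as Rop and Syx1A lie near 0.

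Most of the tested factors that set EE fate were called lower. Of 14 genes in the files, 10 were tested, 7 fell and none rose (median -2.26). The basic helix-loop-helix gene tap had 15, 4 and 21 in trxRNAi-labelled and 199, 154 and 141 in Ctrl-labelled libraries (-3.63 ± 0.37, adjusted p = 8.58e-06). The homeodomain gene pros had between 94 and 106 in trxRNAi-labelled libraries and 891, 553 and 1870 in Ctrl-labelled libraries (-3.24 ± 0.35, adjusted p = 6.37e-05). The trxRNAi-labelled values of pros were close to each other, and its highest value was again in Ctrl DSS replicate 3. The adaptor gene phyl, which acts in EE and sensory precursors, had 6, 3 and 2 in trxRNAi-labelled and 38, 16 and 113 in Ctrl-labelled libraries (-3.01 ± 0.55), and the Iroquois gene mirr had 27, 46 and 36 in trxRNAi-labelled and 162, 120 and 217 in Ctrl-labelled libraries (-2.12 ± 0.31). The gene dimm, a regulator of the neurosecretory state, was called at -2.31 ± 0.52 (adjusted p = 0.00858), which was 0.0534 without Ctrl DSS replicate 1. The zinc finger gene scrt and the proneural gene ase were called lower and lost the call in 3 and 4 of the 6 left-out fits (highest adjusted p = 0.13 without Ctrl DSS replicate 3, and 0.0994 without Ctrl DSS replicate 1). The proneural gene sc did not pass (-1.76 ± 0.55, adjusted p = 0.0545). The 2 members with a difference above 0 were Ptx1, with the values above, and ttk, which represses EE fate (0.21 ± 0.18), and neither was called.

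Notch pathway components were mostly not called, and part of the target genes fell. Of 12 tested receptor, ligand and regulator genes, 1 fell: spdo, which promotes Notch signalling in asymmetric divisions, had 33, 20 and 32 in trxRNAi-labelled and 77, 76 and 123 in Ctrl-labelled libraries (-1.63 ± 0.36, adjusted p = 0.00703). The gene spdo lies inside PH4alphaEFB on the same strand, so reads may be shared. PH4alphaEFB had 70, 72 and 83 in trxRNAi-labelled and 158, 159 and 126 in Ctrl-labelled libraries. Of the 12 genes 3 were called lower without Ctrl DSS replicate 3 and 2 without trxRNAi DSS replicate 2. Of 11 tested target genes, 4 fell and none rose (median -1.06). E(spl)mgamma-HLH had 34, 24 and 31 in trxRNAi-labelled and 128, 122 and 210 in Ctrl-labelled libraries (-2.26 ± 0.30, adjusted p = 8.21e-05). The abundant E(spl)malpha-BFM had 1126, 888 and 903 in trxRNAi-labelled and 1840, 2198 and 2041 in Ctrl-labelled libraries (-1.06 ± 0.16, adjusted p = 0.000314). Both were called in every left-out fit. E(spl)m8-HLH (-2.70 ± 0.66, adjusted p = 0.0165) and E(spl)m6-BFM (-1.30 ± 0.38, adjusted p = 0.0397) were not: 2 targets were called without Ctrl DSS replicate 1 or without trxRNAi DSS replicate 2, and 3 without Ctrl DSS replicate 3 or trxRNAi DSS replicate 1 or 3.

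Surface proteins that hold cells together or sort them fell in part. Of 46 immunoglobulin superfamily adhesion genes, 21 were tested, 6 fell and none rose (median -0.55), each call holding in every left-out fit. The gene rst had 31, 27 and 37 in trxRNAi-labelled and 258, 420 and 314 in Ctrl-labelled libraries (-3.29 ± 0.27, adjusted p = 8.25e-07). Its relative kirre had 17, 9 and 14 in trxRNAi-labelled and 74, 54 and 88 in Ctrl-labelled libraries (-2.28 ± 0.34). The 2 genes overlap on opposite strands, and the sources used here do not say whether counting used strand. The adhesion gene ed, which encodes Echinoid, had 337, 455 and 546 in trxRNAi-labelled and 1511, 2120 and 1168 in Ctrl-labelled libraries (-1.82 ± 0.21, adjusted p = 2.49e-05). Dscam4 (-2.07 ± 0.19), Fas3 (-2.47 ± 0.48) and dpr10 (-2.79 ± 0.59) were the other falls.

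Progenitor markers were mostly not called. Of 9 tested progenitor markers, 3 fell and none rose, with a median of -0.02. The asymmetric division adaptor mira had 237, 248 and 251 in trxRNAi-labelled and 1557, 1317 and 652 in Ctrl-labelled libraries (-2.16 ± 0.32, adjusted p = 0.000686). It lies inside Hs6st on the same strand, so reads may be shared. Hs6st had 69, 63 and 70 in trxRNAi-labelled and 146, 129 and 101 in Ctrl-labelled libraries. The abundant gene heca, which maintains progenitors, had 5318, 7209 and 7832 in trxRNAi-labelled and 13007, 14638 and 9976 in Ctrl-labelled libraries (-0.89 ± 0.17, adjusted p = 0.00313), and spdo was the third. All 10 tested enterocyte structure genes had a difference below 0, with a median of -0.89, and 1 was called lower. This was Ssk, a septate junction gene (-1.99 ± 0.53, adjusted p = 0.0427), with 115, 103 and 91 in trxRNAi-labelled and 354, 199 and 1000 in Ctrl-labelled libraries. The adjusted p of Ssk was between 0.086 and 0.126 without Ctrl DSS replicate 1 or any 1 trxRNAi DSS library. Of 37 tested digestive enzymes, the maltase gene Mal-B1 fell (0, 0 and 1 in trxRNAi-labelled and 71, 136 and 28 in Ctrl-labelled libraries, -4.87 ± 0.66, adjusted p = 0.000164). The amylase gene Amy-d was called higher (1.90 ± 0.49, adjusted p = 0.0193), with 23, 30 and 11 in trxRNAi-labelled and 3, 3 and 6 in Ctrl-labelled libraries, and the call was lost without Ctrl DSS replicate 1 or 2 or trxRNAi DSS replicate 1 or 2 (adjusted p between 0.0582 and 0.108). Of these enzymes 32 had a difference below 0 and the median was -0.88. The call counts in this paragraph stand beside 3.82% called higher and 5.62% lower over all genes tested.

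Transcription factors of gut regions moved in both directions. Of 29 in the files, 16 were tested, 3 rose and 2 fell. Beside cad, the homeobox gene exex had 76, 195 and 161 in trxRNAi-labelled and 34, 39 and 33 in Ctrl-labelled libraries (1.87 ± 0.32, adjusted p = 0.00113). The zinc finger gene drm had 43, 273 and 200 in trxRNAi-labelled and 15, 36 and 8 in Ctrl-labelled libraries (2.87 ± 0.67, adjusted p = 0.0177). Its lowest trxRNAi-labelled library was 43 against a highest Ctrl-labelled library of 36, and the call was lost without Ctrl DSS replicate 1 or 3 or trxRNAi DSS replicate 2 or 3 (adjusted p between 0.0552 and 0.07). The falls were mirr, described above, and hth (-1.51 ± 0.39, adjusted p = 0.0195, and 0.086 without Ctrl DSS replicate 3, the highest of 3 left-out fits that lost the call).

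Genes of cell division leaned lower, and most of their calls were lost when a library was left out. Of 35 tested mitosis genes, 33 had a difference below 0, 6 were called lower and 1 higher, with a median of -0.71. The kinesin gene pav, needed for cytokinesis, had 17, 20 and 13 in trxRNAi-labelled and 85, 57 and 54 in Ctrl-labelled libraries (-1.84 ± 0.42, adjusted p = 0.00887, and 0.0534 without Ctrl DSS replicate 1). The spindle kinesin ncd had 51, 34 and 45 in trxRNAi-labelled and 93, 101 and 110 in Ctrl-labelled libraries (-1.20 ± 0.28, adjusted p = 0.0106, and 0.0576 without trxRNAi DSS replicate 2). Klp10A, a microtubule-depolymerising kinesin, rose, with 264, 259 and 223 in trxRNAi-labelled and 108, 90 and 120 in Ctrl-labelled libraries (1.22 ± 0.18, adjusted p = 0.000277), and was called in every left-out fit. The number of mitosis genes called lower was 1 without Ctrl DSS replicate 1 or trxRNAi DSS replicate 2, 3 without Ctrl DSS replicate 2 or trxRNAi DSS replicate 3, and 4 without Ctrl DSS replicate 3 or trxRNAi DSS replicate 1. Of 25 tested S phase genes, 1 was called lower (Cdc7, -0.83 ± 0.21, adjusted p = 0.0152) and 1 higher (Orc1, 1.59 ± 0.47, adjusted p = 0.0408), and the median was 0.15. Shares over all genes tested were 3.82% called higher and 5.62% lower. Cdc7 lost its call without Ctrl DSS replicate 2 (adjusted p = 0.0851) or trxRNAi DSS replicate 2 (0.0756), and Orc1 without any library other than Ctrl DSS replicate 3 (adjusted p between 0.0634 and 0.182).

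Pathways known to drive regeneration held called genes at about the share of all genes. Of 103 genes tested in 7 such lists, 4 were called higher and 5 lower, or 8.74% beside 9.44% over all genes tested. Of 8 tested JAK/STAT genes, the cytokine gene upd2 fell, with 77, 61 and 114 in trxRNAi-labelled and 483, 388 and 281 in Ctrl-labelled libraries (-2.18 ± 0.39, adjusted p = 0.0037), a call kept in every left-out fit. Of 15 tested JNK and wound response genes, Mmp1, a matrix metalloproteinase, rose, with 889, 681 and 832 in trxRNAi-labelled and 376, 376 and 364 in Ctrl-labelled libraries (1.09 ± 0.18, adjusted p = 0.000907). Gadd45, a stress-response gene, was called higher (0.71 ± 0.20, adjusted p = 0.0332), and its adjusted p lay between 0.0577 and 0.166 without Ctrl DSS replicate 1 or any 1 trxRNAi DSS library. In the insulin, TOR and Myc list, ImpL2, a secreted antagonist of insulin-like peptides, was the called gene among 21 tested, with 269, 180 and 184 in trxRNAi-labelled and 735, 643 and 2469 in Ctrl-labelled libraries (-2.33 ± 0.52, adjusted p = 0.0214, 0.0721 without trxRNAi DSS replicate 2 and 0.0734 without trxRNAi DSS replicate 3). In the EGFR pathway 1 of 21 tested genes was called higher, the ligand gene vn (1.98 ± 0.49, adjusted p = 0.0234), and 2 were called lower, the feedback inhibitors sty (-0.78 ± 0.23) and kek1 (-1.29 ± 0.35). These EGFR calls were also lost with 1 library out, vn without Ctrl DSS replicate 1 or 3 or trxRNAi DSS replicate 2 or 3 (between 0.0737 and 0.0877), sty without any library other than Ctrl DSS replicate 3 (adjusted p between 0.0645 and 0.173), and kek1 without Ctrl DSS replicate 3 or trxRNAi DSS replicate 1 or 2 (between 0.058 and 0.111). None of 13 tested Wingless genes was called by limma, with 3 at an unadjusted p under 0.05, beside 1881 of all 8399 genes tested. Of the other pathways, 1 of 14 Hippo genes was called higher (mats, 0.61 ± 0.16) and 1 of 11 BMP and activin genes lower (Mad, -0.59 ± 0.17), and the highest adjusted p in a left-out fit was 0.0685 for mats, without trxRNAi DSS replicate 2, and 0.176 for Mad, without Ctrl DSS replicate 2.

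Genes of the ecdysone response fell in part. Of 13 tested, 4 were called lower and none higher, with a median of -0.44. The steroid-induced factor br had 114, 59 and 63 in trxRNAi-labelled and 322, 363 and 326 in Ctrl-labelled libraries (-2.13 ± 0.27, adjusted p = 6.4e-05). The nuclear receptor gene Hr3 had 52, 43 and 55 in trxRNAi-labelled and 134, 144 and 156 in Ctrl-labelled libraries (-1.50 ± 0.25, adjusted p = 0.000823). The groups did not overlap for these genes, and the calls held in every left-out fit. Hr3 overlaps CG12912 and CG46321 on the same strand, so reads may be shared. CG12912 had 39, 51 and 43 in trxRNAi-labelled and 118, 125 and 103 in Ctrl-labelled libraries. CG46321 had 47, 59 and 52 in trxRNAi-labelled and 137, 161 and 142 in Ctrl-labelled libraries. Eip75B (-0.94 ± 0.27, adjusted p = 0.0388) and Eip93F (-0.57 ± 0.14, adjusted p = 0.0144) were called as well. Eip75B lost the call without any 1 Ctrl DSS library or trxRNAi DSS replicate 1, and Eip93F without Ctrl DSS replicate 2 or trxRNAi DSS replicate 2 or 3, and without Ctrl DSS replicate 2 both were lost, which left 2 called genes.

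The chromatin genes around trx itself did not separate the groups at the threshold. None of 15 tested trx and COMPASS genes, 9 Brahma complex genes and 19 Polycomb group genes was called by limma, with median differences of -0.11, -0.13 and 0.09 in that order. At an unadjusted limma p under 0.05 there were 3, 1 and 1 genes, beside 1881 of all 8399 genes tested. Differences ran between -0.38 and 0.80 in the COMPASS list and between -0.68 and 0.38 in the Polycomb list.

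Ribosomal protein genes were higher together, by small amounts. Of 86 genes for cytosolic ribosomal proteins, 82 were tested, 79 had a difference above 0, 31 rose and none fell, with a median of 0.41. RpS21 had the largest difference, with values of 21502, 15922 and 16210 in trxRNAi-labelled and 8833, 9459 and 7598 in Ctrl-labelled libraries (1.04 ± 0.16, adjusted p = 0.000378). RpL30 had 17937, 14783 and 15962 in trxRNAi-labelled and 8850, 9139 and 8197 in Ctrl-labelled libraries (0.89 ± 0.13, adjusted p = 0.000188). RpLP1 and RpL3 rose by 0.64 ± 0.13 and 0.61 ± 0.14. With libraries brought to one total, 17 of the 82 rose. Without trxRNAi DSS replicate 1 the number was 14, without trxRNAi DSS replicate 3 it was 18, without Ctrl DSS replicate 1 or trxRNAi DSS replicate 2 it was 20, without Ctrl DSS replicate 3 it was 27 and without Ctrl DSS replicate 2 it was 32. Mitochondrial ribosomal proteins gave 3 rises of 72 tested (median 0.29). Respiratory complex I gave 2 of 33 (median 0.39) and complexes II to V gave 3 of 34 (median 0.38). These counts stand beside 3.82% called higher over all genes tested. Complexes II to V had 14 calls and complex I had 8 without Ctrl DSS replicate 3. Each had between 0 and 1 without any other library. Mitochondrial ribosomal proteins had between 1 and 5 calls over the left-out fits. ND-PDSW of complex I rose by 0.82 ± 0.17 in the fit of all libraries and in every left-out fit.

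Small nucleolar RNAs guide modification of ribosomal RNA. Beside 3.82% called higher and 5.62% lower over all genes tested, they gave 14 calls higher and 2 lower among 172 tested (median 0.28). Of the 66 that lie inside a ribosomal protein gene on the same strand, 11 were higher and 1 lower (median 0.39), and of the other 106, 3 were higher and 1 lower (median 0.16). In some pairs the values of such a gene and its host were alike: snoRNA:Me28S-A2113, inside RpL30, had 21617, 17749 and 19645 in trxRNAi-labelled and 11005, 10868 and 10465 in Ctrl-labelled libraries. In others they were not. In the trxRNAi-labelled libraries snoRNA:CD-24 had 55, 62 and 88, and its host RpS3A had 29092, 30741 and 28005. Inside RpS16, which stood at 0.49, snoRNA:Psi28S-1175a had 2, 4 and 4 in trxRNAi-labelled and 21, 9 and 3 in Ctrl-labelled libraries. Whether reads of such a gene come from the host or from the small RNA cannot be told apart here. The count of rises was between 5 and 9 without any 1 library other than Ctrl DSS replicate 3, and 17 without that library. None of 16 ribosome biogenesis genes was called by limma (median -0.15). Of them 2 had an unadjusted p under 0.05, beside 1881 of all 8399 genes tested.

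Detoxification genes moved in both directions. Of 30 tested glutathione S-transferases, 5 were called higher and 2 lower, with a median of -0.06, and over the left-out fits between 3 and 5 were higher and between 0 and 1 lower. GstO3 had 1144, 1367 and 1363 in trxRNAi-labelled and 486, 574 and 764 in Ctrl-labelled libraries (1.10 ± 0.22, adjusted p = 0.00328). GstE11 had 820, 580 and 589 in trxRNAi-labelled and 416, 304 and 334 in Ctrl-labelled libraries (0.91 ± 0.19), and GstT1 had 363, 312 and 281 in trxRNAi-labelled and 186, 148 and 174 in Ctrl-labelled libraries (0.90 ± 0.18), all 3 called in every left-out fit. The groups did not overlap for these. Of 11 tested metal handling genes, 3 were called higher: Ctr1B, with 64, 62 and 48 in trxRNAi-labelled and 8, 11 and 15 in Ctrl-labelled libraries, the metallothionein MtnE (1.20 ± 0.29, adjusted p = 0.0123, and 0.0661 without Ctrl DSS replicate 1) and the ferritin subunit gene Fer1HCH (0.57 ± 0.14, adjusted p = 0.0139, 0.0582 without Ctrl DSS replicate 2 and 0.0675 without trxRNAi DSS replicate 2). Of 14 tested peptidoglycan recognition and antimicrobial genes, 1 was called higher and 1 lower. PGRP-LB, an amidase that degrades peptidoglycan, had 796, 605 and 725 in trxRNAi-labelled and 193, 251 and 310 in Ctrl-labelled libraries (1.51 ± 0.30, adjusted p = 0.00582). PGRP-SC1b, of the same family, was called lower, with 3, 0 and 0 in trxRNAi-labelled and 44, 61 and 6 in Ctrl-labelled libraries (-3.39 ± 0.86, adjusted p = 0.0183), and its adjusted p was between 0.0731 and 0.0857 without Ctrl DSS replicate 1 or 2 or trxRNAi DSS replicate 2 or 3. Of 5 tested acyl-CoA binding proteins, 1 was called higher and 1 lower. Acbp5 had 1250, 1024 and 1048 in trxRNAi-labelled and 401, 472 and 404 in Ctrl-labelled libraries (1.37 ± 0.19, adjusted p = 0.000111), and Acbp6 had 4, 3 and 3 in trxRNAi-labelled and 21, 12 and 70 in Ctrl-labelled libraries (-2.42 ± 0.58, adjusted p = 0.0117, and 0.054 without Ctrl DSS replicate 3). Of 9 oxidative stress genes and 20 heat shock and chaperone genes limma called none. In these lists 1 and 3 genes had an unadjusted p under 0.05, beside 1881 of all 8399 genes tested. Of 33 proteasome genes Prosalpha1 was called, with a rise of 1.43 ± 0.27. Call counts in this paragraph stand beside 3.82% called higher and 5.62% lower over all genes tested.

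Markers of neurons, which share the secretory genes above, were also lower. Of 6 tested neuron markers, 4 fell and none rose (median -1.59): fne (-2.27 ± 0.35), nSyb, brp and futsch (-1.49 ± 0.39, a call lost in 4 left-out fits), and the first of them had 12, 15 and 12 in trxRNAi-labelled and 62, 60 and 92 in Ctrl-labelled libraries. Summed over the list, neuron markers took between 0.0133% and 0.0174% of the value total in trxRNAi-labelled and between 0.0217% and 0.0311% in Ctrl-labelled libraries. The transmitter genes among them were at or near 0: VGlut was listed at 0 in all 6 libraries, Gad1 at 0, 0 and 1 in trxRNAi-labelled and 0 in each Ctrl-labelled library, and ChAT at 0, 0 and 1 in trxRNAi-labelled and 4, 7 and 15 in Ctrl-labelled libraries. EE cells share nSyb and brp with neurons, and the part of neurons in these results was not tested beyond this. Of 10 tested visceral muscle markers, 2 were called lower (Mef2, -0.72 ± 0.17, lost without Ctrl DSS replicate 2 or trxRNAi DSS replicate 3, and sls, -1.46 ± 0.45, lost in 5 left-out fits), and the list took between 0.0817% and 0.127% of the total in trxRNAi-labelled and between 0.0916% and 0.175% in Ctrl-labelled libraries. Of 3 tested hemocyte markers, the scavenger receptor gene crq was higher (1.04 ± 0.15, adjusted p = 0.000241), with 1208, 1258 and 1132 in trxRNAi-labelled and 582, 667 and 504 in Ctrl-labelled libraries. The other 2 had differences below 0, the lowest at -1.05, and were not called, and the list median was -0.37. Without Ctrl DSS replicate 2, 1 hemocyte marker was called lower. The hemocyte genes He and eater were listed at 0 in all 6 libraries. Of 2 tested trachea markers and 2 tested fat body and ovary markers, limma called none, and none had an unadjusted p under 0.05.

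**Figure D4:**
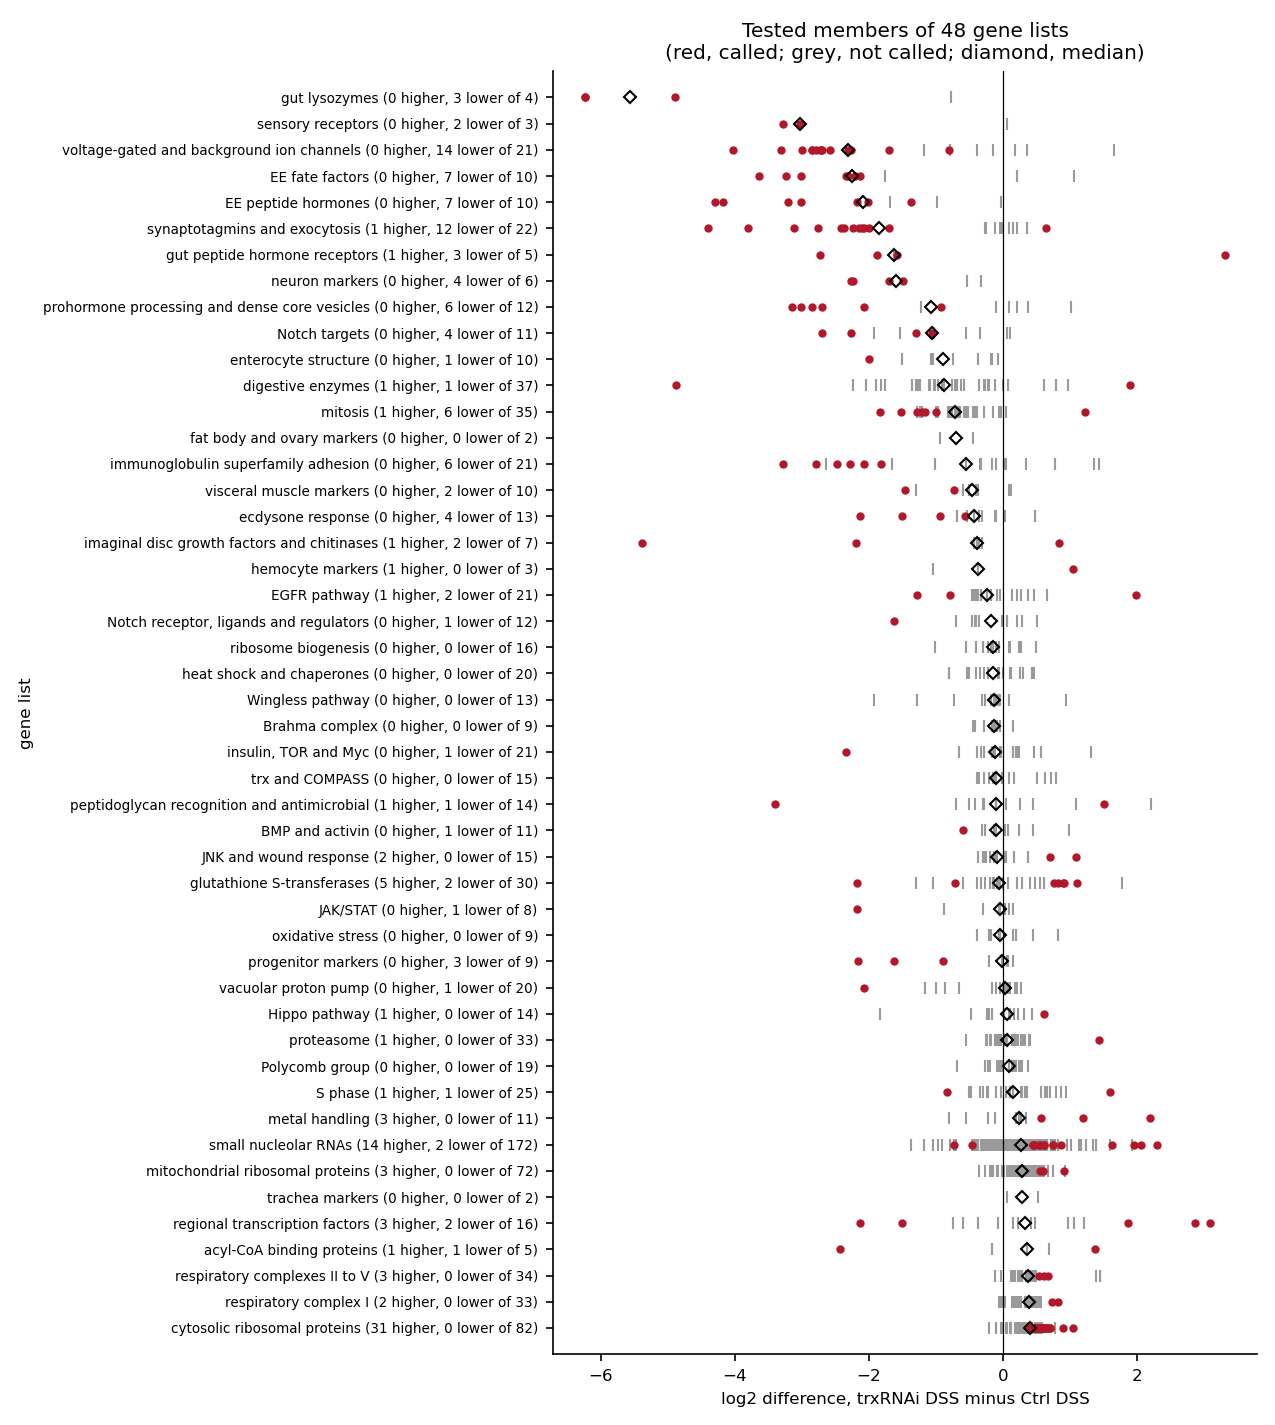
log2 difference, trxRNAi DSS minus Ctrl DSS, of each tested member of 48 gene lists ordered by median, with called members in red, members not called in grey and the median as a diamond. Lysozymes, sensors, ion channels, EE fate factors and hormones lie farthest to the left, and cytosolic ribosomal proteins have the highest median at 0.41.

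The genotype difference under DSS was then set beside that under sucrose, which uses the other 6 libraries. Under sucrose 393 genes (4.68%) were called between trxRNAi and Ctrl, and 182 genes were called under both feeds, 23.0% of the DSS calls and 46.3% of the sucrose calls. For 144 of these the direction was opposite and for 38 it was the same. The difference between the feeds itself was called for 744 genes (8.86%), positive for 303 (3.61%) and negative for 441 (5.25%). These 744 included 469 of the 793 DSS calls. Of all DSS calls, the trxRNAi Sucrose mean lay nearer to Ctrl DSS than to trxRNAi DSS for 550 (69.4%), and the Ctrl Sucrose mean lay nearer to trxRNAi DSS for 434 (54.7%).

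The EE lists held genes of both kinds. Part of the hormone, processing and channel genes fell under both feeds: NPF, AstC and Orcokinin among the hormones, amon, IA-2, 7B2 and Pal2 among the processing genes, and Sh, stol and Ca-alpha1T among the channels were called lower under sucrose as well. In the same lists sNPF and Ih were called in the opposite direction: Ih had 1192, 866 and 1235 in trxRNAi Sucrose and 484, 457 and 508 in Ctrl Sucrose, and sNPF had 22, 16 and 72 in trxRNAi Sucrose and 2, 0 and 0 in Ctrl Sucrose. NPF differed by -2.75 under sucrose, and the difference between its feeds did not pass (adjusted p = 0.623). AstC fell further under sucrose (-3.31) than under DSS, a difference between feeds with an adjusted p = 0.000362. Of the 7 fate factors called under DSS, 5 went the other way: pros, phyl, mirr, ase and scrt were lower in trxRNAi-labelled libraries under DSS and called higher in trxRNAi under sucrose. The other 2, tap and dimm, were not called under sucrose, where tap had 53, 51 and 46 in trxRNAi and 140, 129 and 112 in Ctrl (-1.31, adjusted p = 0.0521). Syt4 differed by -4.40 under DSS and by 4.06 under sucrose. Of the 13 exocytosis genes called under DSS, the other 12 were not called under sucrose. The 3 lysozymes, Idgf3, br, Hr3, rst, kirre and Dscam4 were likewise called higher under sucrose. The Notch targets E(spl)mgamma-HLH, E(spl)m8-HLH and E(spl)m6-BFM, with spdo, pav, ncd, ImpL2, fne and Mal-B1, were also called higher there. In turn exex, drm, AstA-R1, Mmp1, Klp10A, crq and Acbp5 were called lower under sucrose. NPFR and AstA-R2 were called lower under both feeds, and Cht2 was called higher under both. None of the 31 ribosomal protein rises was called under sucrose, and for 20 of them the difference between feeds was called.

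**Figure D5:**
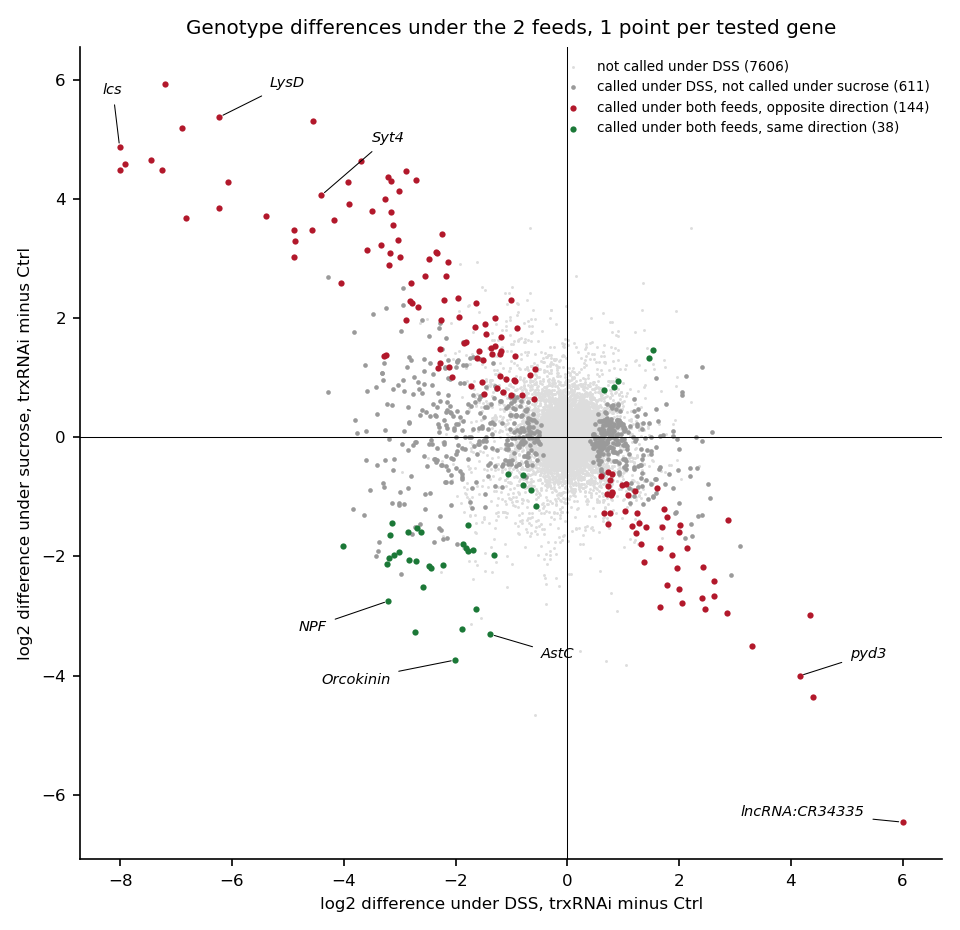
Genotype difference (log2, trxRNAi minus Ctrl) under DSS on the horizontal axis and under sucrose on the vertical axis, 1 point per tested gene. Of the 182 genes called under both feeds, 144 lie in the quadrants of opposite direction, with lcs, LysD and Syt4 at upper left and lncRNA:CR34335 at lower right, and 38 lie in those of the same direction, with NPF, AstC and Orcokinin at lower left.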

How the data were processed

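RNA of sorted progenitors from 12 libraries in 4 groups of 3 was analysed, with groups and replicate numbers taken from the sample titles. The deposited values are whole numbers per gene and library that the authors had scaled and rounded, so they were treated as a score and not as counts; gaps and doubled classes among low values of several libraries are the marks of such scaling. The submitters' processing notes name the build dm6 and the tools limma, edgeR, DESeq2, DESeq, Bowtie2, HISAT2 and bcl2fastq, with no roles. Which counter and annotation were used, and whether by strand, is not given in the sources used here. Depth before scaling is unknown, and since scaling sets typical genes level, total RNA cannot be compared.

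Genes that reached a value of 10 in 3 or more of 12 libraries were fitted as log2(value + 2) with limma 3.58.1 (statmod 1.5.0, R 4.3.3), 1 mean per group over all 12 libraries, an intensity trend and robust variance. The pseudocount understates differences of low genes. P-values were adjusted by Benjamini-Hochberg over all genes tested, with a threshold of 0.05. Confidence intervals are at 95% and cover the spread between libraries. On simulated data, 35% of 100 genes changed 2-fold and 96% of 100 changed 4-fold were recovered among 8340 tested, with 11 other genes called. The simulated spread followed a fixed rule from the mean value, equal in all groups, and was not estimated from these libraries. Recovery and other calls in the real data may therefore differ.

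Symbols and positions came from Ensembl annotation release 115, which matched 17520 of 17617 identifiers and left 97 unmatched. Named genes were trx and Ptx1, the 12 largest rises and falls with a mean of at least 50 and no overlap that held with each DSS library left out, up to 4 called members per list by p, and the highest and most feed-dependent called genes. Further list members were named after their values were seen. The members and lists were chosen with earlier results of these data known. Tables and figures were made with python 3.11.15, pandas 2.3.3, numpy 2.4.6 and matplotlib 3.10.9. Alternatives were other scalings, filters, pseudocounts and variance models, only the 6 DSS libraries, a replicate block, a size threshold and each library left out. Replicates of a group differed by more than the sampling noise that the scaled values would have if they were counts.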

Additional observations from a re-analysis of the deposited data

Results flagged for a closer look

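The genotype difference under DSS minus that under sucrose was itself tested with limma, and the genes below were named because this difference between feeds passed the threshold. The largest negative values on the log2 scale were those of CG13947 (-13.12), lcs (-12.88), CG34212 (-12.51), whe (-12.47) and CG16826 (-12.11), genes that were lower in trxRNAi-labelled libraries under DSS and higher in trxRNAi under sucrose. The largest positive values were those of lncRNA:CR34335 (12.47), pyd3 (8.16), Sp7 (7.32), AstA-R1 (6.82) and drm (5.82), with the opposite pattern. Ptx1 differed by 4.87 between the feeds. The target gene trx differed by 0.92 (adjusted p = 0.0416), a call that was lost with libraries brought to one total (adjusted p = 0.119), and without Ctrl Sucrose replicate 3 (0.101) or trxRNAi Sucrose replicate 3 (0.115), among other settings.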

How the results depend on the processing

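No named difference changed direction under any alternative run. The count of genes higher in trxRNAi DSS, 321 as reported, was 211 with no intensity trend and no robust variance, 202 with only the 6 DSS libraries, 201 with libraries rescaled to the mean total, 141 at an absolute log2 difference of at least 1, and between 179 and 448 with 1 DSS library left out. The count lower, 472, was between 347 and 486 with 1 library left out, and the count with a difference between feeds, 744, was between 537 and 755. Of 136 named genes, 125 were called; 82 of these were called in all alternatives and 43 lost the call in at least 1, while 5 of the 11 not called gained it in at least 1. The causes were not tested. Pairing of the libraries by replicate number was not seen: deviations of same-numbered DSS libraries correlated at -0.05, 0.15 and -0.10. So few libraries cannot show that pairing is absent. With the replicate block 352 genes were higher and 513 lower, and Ptx1 passed (adjusted p = 0.0491). With 3 libraries a group, 2-fold changes were often missed in simulation, so a gene not called is not shown to be unchanged.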
